A study of Homo sapiens with 6 samples.

Results

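The HSP90 chaperone system was described through 10 genes, HSP90AA1, HSP90AB1, STIP1, AHSA1, PTGES3, CDC37, FKBP4, FKBP5, HSF1 and HSF2, chosen by symbol out of 23710 gene symbols counted in RNA sequencing libraries of K562 cells. K562 is an established human line from a chronic myelogenous leukaemia, grown here in a medium with 10% FBS at passages 13 to 16. One group of 3 libraries came from cells given 20 µM 3FM-dC together with 2 mM THU, called treated below, and the other group of 3 from cells given only DMSO, the solvent of both compounds, each for 24 h. The design asked how 3FM-dC alters gene expression across the genome. No library with THU alone was analysed here, so the effects of 3FM-dC and THU cannot be told apart. The labels do not say that replicates were separate cultures. The p-values therefore set group differences only against variation between these libraries, and that variation may be technical.

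HSP90 is an abundant ATP-driven chaperone that holds kinases, steroid receptors and other clients in a form that can be activated. It works with co-chaperones that load clients, pace its ATPase cycle or bind its tail. Heat shock factor HSF1 switches on chaperone genes when unfolded protein accumulates, by binding repeats of the pentamer nGAAn in their promoters, and HSP90 itself helps to hold HSF1 inactive.

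Gene counts per library lay between 19052821 and 20737363 in treated cells and between 18408826 and 22750278 in DMSO cells. K562 identity was checked with 5 markers, HBE1, HBG1, HBZ, GATA1 and TFRC, all present in every library, with a summed level of 2474 to 2654 CPM in treated cells and 5018 to 5118 CPM in DMSO cells. CPM values here are counts set against a library total that was scaled by the TMM method. Of 9 markers of lymphoid, stromal, endothelial and epithelial cells, MS4A1, CDH5 and KRT5 had no count in any library. The summed level of the 9 was 64.4 to 67.6 CPM in treated cells and 102.7 to 104.6 CPM in DMSO cells, most of it EPCAM, at 62.1 ± 1.52 CPM in treated and 102.6 ± 0.708 CPM in DMSO cells (SD, n = 3 each). Their part in the results below was not tested.

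Of the 10 genes, 9 fell and HSF1 rose in treated cells at an adjusted p under 0.05, by the quasi-likelihood test of edgeR and Benjamini-Hochberg adjustment over 12339 genes. All 10 passed the filter on low counts. Over all tested genes 32.7% were lower and 33.8% higher. The CPM values of the groups did not overlap for any of the 10, with treated libraries below for 9 and above for HSF1, where 34.5% of tested genes had treated libraries below and 35.5% above. Among the 5935 genes at or above the mean level of HSF2, the least abundant of the 10, 48.1% were lower and 27.8% higher, and 49.9% had all treated libraries below. The falls of FKBP4 and HSP90AA1 were at least 2-fold, as were those of 2.46% of tested genes. HSP90AA1 was under that line with libraries scaled by their totals (log2 fold change -0.99) and just at it without treated replicate 2. Against a minimum fold change of 1.2, which 17.2% of tested genes passed as lower and 21.4% as higher, 7 of the 10 passed as lower and 0 as higher. With libraries scaled by their totals, by which 25.8% of genes were lower and 41.0% higher, 9 were again lower and 1 higher. The median log2 fold change was -0.57 for the 10 genes and 0.01 for all tested genes. In bulk RNA, fewer cells with a transcript and less transcript per cell cannot be told apart. The 10 genes together held 0.710%, 0.613% and 0.665% of gene counts in treated replicates 1, 2 and 3, against 1.15%, 1.14% and 1.14% in DMSO replicates 1, 2 and 3.

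**Figure D1:**
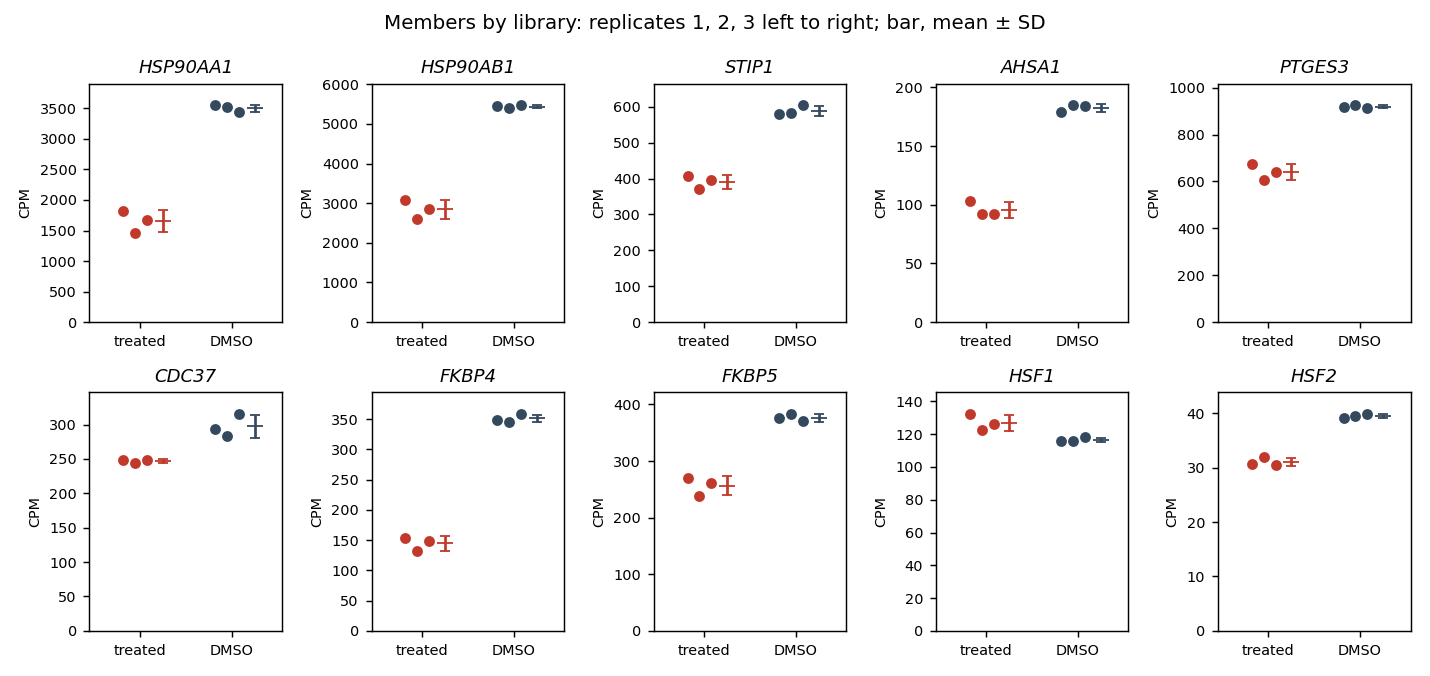
Level in CPM (vertical axes, from 0) of the 10 genes in each treated library (red, left) and DMSO library (dark, right), with mean ± SD of 3 libraries beside the points. Groups do not overlap for any gene, and HSF1 alone is higher in treated cells.

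Both cytosolic HSP90 genes fell by close to 2-fold. HSP90AA1, the stress-inducible form HSP90 alpha, had 1825, 1467 and 1677 CPM in treated cells, against 3551, 3517 and 3435 CPM in DMSO cells. HSP90AB1, the constitutive form HSP90 beta, had 3086, 2592 and 2843 CPM in treated cells, against 5445, 5388 and 5468 CPM in DMSO cells. For both genes every treated library lay below every DMSO library. The log2 fold changes were -1.08 for HSP90AA1 (SE 0.04, edgeR adjusted p = 2.20e-18) and -0.94 for HSP90AB1 (SE 0.04, edgeR adjusted p = 1.38e-18). HSP90AA1 fell more than HSP90AB1 on average. Its counts were 59.1%, 56.6% and 59.0% of those of HSP90AB1 in treated libraries, against 65.2%, 65.3% and 62.8% in DMSO libraries, a log2 difference of -0.15 with no overlap. The exact two-sided permutation test gave p = 0.10, the smallest that 3 libraries against 3 can give. The paralogs are similar in sequence and could share reads, and HSP90AB4P, a pseudogene symbol of this family in the files, had between 1 and 4 counts per library. HSP90B2P, another, had between 1 and 10.

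The promoters of HSP90AA1 and HSP90AB1 are shown because they hold the 3-unit heat shock motif, and a stretch of STIP1 because it holds the 2-unit form. Each is on the strand of its gene, from RefSeq on GRCh38.p14, with motif matches in capitals. The HSP90AA1 and HSP90AB1 windows are the 250 bases before an annotated start, and the STIP1 window is the 30 bases from a start onward. They lie at chr14:102087045-102087294 on the minus strand, chr6:44247693-44247942 on the plus strand and chr11:64186171-64186200 on the plus strand.
HSP90AA1: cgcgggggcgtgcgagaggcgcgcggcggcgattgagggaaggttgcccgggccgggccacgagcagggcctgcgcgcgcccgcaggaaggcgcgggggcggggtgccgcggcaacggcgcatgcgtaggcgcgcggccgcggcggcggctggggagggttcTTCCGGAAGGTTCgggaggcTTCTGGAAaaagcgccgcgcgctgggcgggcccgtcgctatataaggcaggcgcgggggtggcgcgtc
HSP90AB1: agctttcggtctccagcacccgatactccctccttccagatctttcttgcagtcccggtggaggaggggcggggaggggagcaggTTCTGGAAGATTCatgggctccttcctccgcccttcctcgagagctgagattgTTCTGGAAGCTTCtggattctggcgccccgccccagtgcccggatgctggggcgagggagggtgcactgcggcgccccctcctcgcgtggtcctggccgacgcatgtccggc
STIP1: agcttctagtaggTTCCAGAAggcggcgcg

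Windows of 300 bases, 250 before and 50 after each RefSeq start, were searched for 2-unit motifs, GAANNTTC and TTCNNGAA, each of which reads alike on both strands. The 3-unit motif extends either by a further unit after any 2 bases, as GAANNTTC followed by NNGAA or as TTCNNGAA followed by NNTTC, and these are the same motif on opposite strands. Each 3-unit match therefore contains 2-unit matches. The 3-unit motif was in 0.490% of all 35116 windows and a 2-unit motif in 13.5%. Promoters of 8 of the 10 genes, with 15 starts, were searched, and HSF1 and FKBP4 were not used here. HSP90AA1 held TTCCGGAAGGTTC at bases -88 to -76 and a separate 2-unit TTCTGGAA at -68 to -61 before its second annotated start. HSP90AB1 held TTCTGGAAGATTC at -165 to -153 and TTCTGGAAGCTTC at -112 to -100 before the last of its 3 starts. STIP1 held TTCCAGAA at bases 14 to 21 of its second start. AHSA1, PTGES3, CDC37, FKBP5 and HSF2 had no match in these windows. By GENCODE release 29, also on GRCh38, the HSP90AA1 window lies in an intron of the longer protein-coding transcript and overlaps the first exon of the shorter one by 147 bases. The HSP90AB1 window is intronic in 3 of 4 protein-coding transcripts and overlaps the first exon of the fourth by 77 bases. A match describes these letters only, and binding of HSF1 was not measured.

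Among the co-chaperones that bind the tail of HSP90 through TPR repeats, FKBP4 fell most. FKBP4, the immunophilin FKBP52 that favours steroid receptor activity, had 154, 131 and 149 CPM in treated cells, against 349, 346 and 359 CPM in DMSO cells. Its log2 fold change was -1.28 (SE 0.05, edgeR adjusted p = 7.77e-20). FKBP5, the related immunophilin FKBP51 that lowers hormone binding by the glucocorticoid receptor, had 269.6, 238 and 262 CPM in treated cells, against 375, 383 and 370.0 CPM in DMSO cells. FKBP5 fell by 0.55 (SE 0.04, edgeR adjusted p = 1.30e-12), so that the fall of FKBP4 was the deeper of this pair. STIP1, the adaptor HOP that bridges HSP70 and HSP90, had 409, 371 and 396 CPM in treated cells, against 581, 581 and 604 CPM in DMSO cells. It fell by 0.59 on the log2 scale (SE 0.04, edgeR adjusted p = 3.39e-14). None of these 3 genes had overlapping groups, and treated replicate 2 was the lowest library for each.

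AHSA1, which stimulates the ATPase of HSP90, fell by about as much as HSP90 itself. It had 103, 92.1 and 91.7 CPM in treated cells, against 179, 185 and 184 CPM in DMSO cells, a log2 fold change of -0.93 (SE 0.05, edgeR adjusted p = 3.30e-16). PTGES3, the p23 protein that holds HSP90 in its closed ATP-bound form, had 673, 606 and 639.6 CPM in treated cells, against 917, 925 and 913 CPM in DMSO cells. It fell by 0.52 (SE 0.035, edgeR adjusted p = 1.29e-13). The kinase adaptor CDC37 changed least of the co-chaperones, with 249, 244 and 248 CPM in treated cells, against 293, 283 and 315 CPM in DMSO cells. Its log2 fold change was -0.27 (SE 0.04, edgeR adjusted p = 1.01e-06). The 3 treated CDC37 values lay closer together than the DMSO values, and all were below the lowest DMSO value. Tested against a minimum fold change of 1.2, CDC37 did not pass (adjusted p = 0.402), over a range of 2.48e-12 to 0.402 across 14 alternatives.

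The heat shock factors went opposite ways, by small amounts. HSF1 had 132, 123 and 126 CPM in treated cells, against 116, 116 and 118 CPM in DMSO cells. Its log2 fold change was 0.12 (SE 0.045, edgeR adjusted p = 0.0171), higher in 3 of 3 treated libraries than in any DMSO library. That call was lost without treated replicate 1 (adjusted p = 0.0976), without DMSO replicate 1 (0.0669), without DMSO replicate 2 (0.0567) and against a minimum fold change of 1.2 (adjusted p = 1), over a range of 7.50e-05 to 1 across 14 alternatives. HSF1 exons overlap those of DGAT1 on the other strand along 6.22% of their length in GENCODE, and the strand setting of the counting is not given in the sources used here. HSF2, a related factor that can join HSF1 in mixed trimers, had 30.7, 32.0 and 30.5 CPM in treated cells, against 39.1, 39.6 and 39.9 CPM in DMSO cells. HSF2 fell by 0.35 (SE 0.07, edgeR adjusted p = 4.92e-05). That call was lost against a minimum fold change of 1.2 (adjusted p = 0.0840, over a range of 3.87e-06 to 0.0840).

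**Figure D2:**
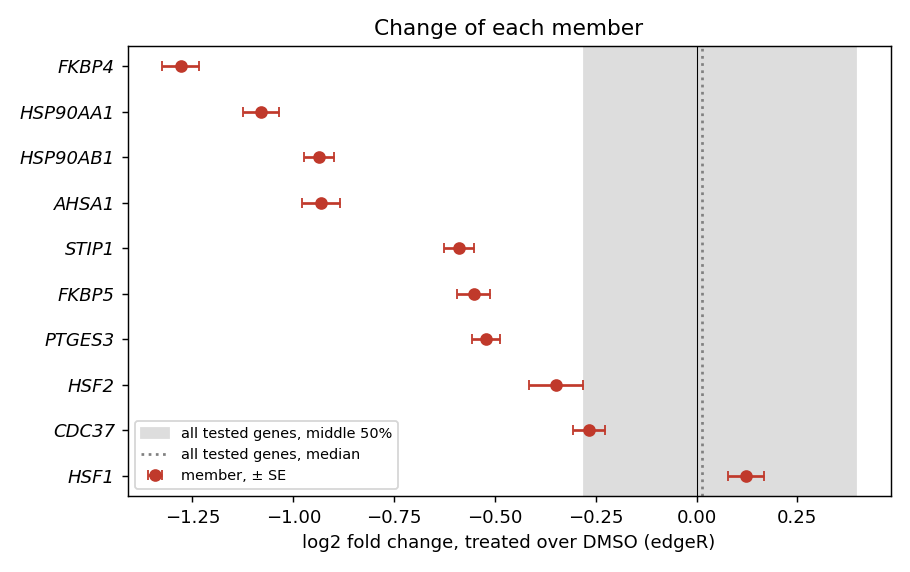
Log2 fold change of each of the 10 genes, treated over DMSO (horizontal axis), with standard errors, against the median (dotted) and the interquartile range of all 12339 tested genes (grey). FKBP4 at -1.28, HSP90AA1 at -1.08, HSP90AB1 at -0.94 and AHSA1 at -0.93 lie furthest left, and HSF1 at 0.12 is the only one right of 0.

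Ratios within a library do not depend on how libraries are scaled, and they show which genes fell less than HSP90. Each count was divided by the sum of HSP90AA1 and HSP90AB1 counts. Since both HSP90 genes fell, this ratio was higher in treated libraries for most genes: over the other 12337 tested genes, 92.9% had all treated libraries above and 1.31% had all below. The median log2 difference was 1.004 over those with counts in every library, with quartiles of 0.71 and 1.38. CDC37 stood at 5.07%, 6.02% and 5.48% of HSP90 in treated libraries, against 3.26%, 3.18% and 3.54% in DMSO libraries. STIP1 averaged 8.74 ± 0.406% in treated and 6.59 ± 0.174% in DMSO libraries (SD, n = 3 each). PTGES3 averaged 14.3 ± 0.627% in treated and 10.3 ± 0.0932% in DMSO libraries. These co-chaperones were thus higher relative to HSP90 while lower in CPM. FKBP5 followed the same pattern, with 5.71 ± 0.193% in treated and 4.21 ± 0.0789% in DMSO libraries. FKBP4 was lower relative to HSP90, at 3.14%, 3.23% and 3.30% in treated libraries, against 3.88%, 3.88% and 4.03% in DMSO libraries. AHSA1 kept an overlapping ratio, at 2.11%, 2.27% and 2.03% in treated libraries, against 1.99%, 2.07% and 2.07% in DMSO libraries, a log2 difference of 0.06 with SDs of 0.08 in treated and 0.04 in DMSO libraries. HSF1 had the largest difference of the 8 ratios and the only one above the median of all genes, with 2.84 ± 0.168% in treated and 1.31 ± 0.0200% in DMSO libraries, a log2 difference of 1.12. The ratio of HSF2 differed by 0.65, that of CDC37 by 0.73 and that of FKBP4 by -0.29. Treated libraries were above without overlap for 6 of the 8 ratios, a share below the 92.9% over all genes, and below for FKBP4. Each of these 7 had an exact two-sided permutation p = 0.10, the smallest possible, which is 0.114 after Benjamini-Hochberg adjustment over the 8. For AHSA1 the exact permutation p was 0.40, which does not show that its ratio was equal in the groups.

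**Figure D3:**
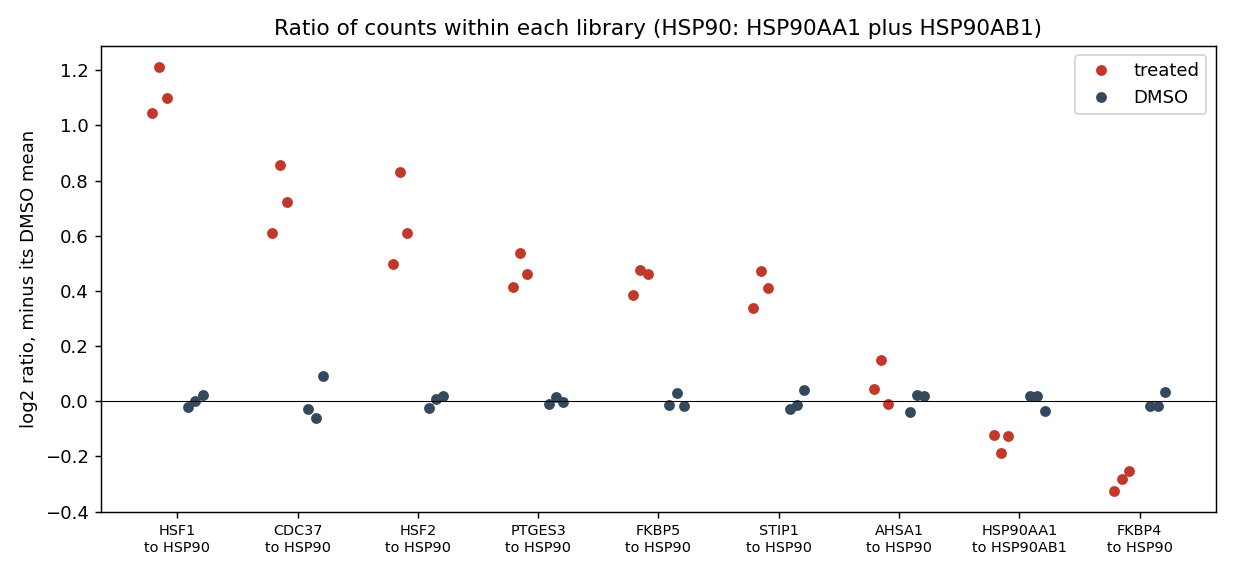
Log2 ratio of each gene's count to HSP90 counts in the same library, minus the DMSO mean of that ratio (vertical axis), for treated (red, left) and DMSO (dark, right) libraries, with HSP90AA1 set against HSP90AB1 alone. Ratios of HSF1, CDC37, HSF2, PTGES3, FKBP5 and STIP1 are higher in treated libraries, those of FKBP4 and of HSP90AA1 to HSP90AB1 are lower, and those of AHSA1 overlap. The median difference over all tested genes is 1.004.

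Levels were compared between genes per kilobase of exon, with the exonic length of protein-coding transcripts in GENCODE. HSP90AB1 came first in both groups, at 953 ± 82.8 CPM per kb in treated and 1823 ± 13.7 CPM per kb in DMSO cells (SD, n = 3 each). HSP90AA1 came next, at 411 ± 44.7 CPM per kb in treated and 869 ± 14.8 CPM per kb in DMSO cells. PTGES3 followed, at 308 ± 16.0 CPM per kb in treated and 442 ± 2.70 CPM per kb in DMSO cells. These 3 genes kept the top places in both groups. CDC37, at 154 ± 1.45 CPM per kb, stood above STIP1, at 132 ± 6.52 CPM per kb, in treated cells, while in DMSO cells CDC37 had 185 ± 10.1 and STIP1 199 ± 4.50 CPM per kb. HSF1 (56.9 ± 2.18), AHSA1 (48.3 ± 3.38) and FKBP4 (38.3 ± 3.18 CPM per kb) followed in treated cells. In DMSO cells FKBP4 (92.8 ± 1.73) and AHSA1 (92.1 ± 1.67 CPM per kb) differed by less than their spread and stood above HSF1 (52.2 ± 0.559 CPM per kb). FKBP5 had 24.1 ± 1.57 CPM per kb in treated and 35.4 ± 0.612 CPM per kb in DMSO cells over a length of 10628 bases, which counts all its annotated ends, and HSF2 was last with 11.5 ± 0.298 CPM per kb in treated and 14.6 ± 0.150 CPM per kb in DMSO cells.

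The treated libraries were more spread for these genes than the DMSO libraries. The coefficient of variation was 10.9% in treated and 1.70% in DMSO cells for HSP90AA1, and 8.70% in treated and 0.753% in DMSO cells for HSP90AB1. It was larger in treated cells for 9 of the 10 genes, all but CDC37, and for 52.0% of all tested genes. That 52.0% covers genes of every level and was not taken at the level of these 10. Difference between library pairs beyond counting noise was measured over all well-counted genes by chi-square per degree of freedom. This was 3.09 to 6.22 for treated pairs and 2.38 to 3.25 for DMSO pairs. A wider treated spread is thus not shown to be particular to these 10 genes. Treated replicate 1 was the highest treated library for 9 of the 10 genes, and treated replicate 2 the lowest for 8. Over all tested genes these shares were 35.9% for replicate 1 as the highest and 37.9% for replicate 2 as the lowest. Treated replicate 2 had a TMM factor of 1.04, the highest of the 6 libraries, and 11.2% of its reads lay in no annotated feature, against 11.3% and 13.1% in treated replicates 1 and 3. Whether these differences bear on the spread was not tested. The log2 fold change of HSP90AB1 was -0.88 without treated replicate 2, and that of HSP90AA1 was -1.16 without treated replicate 1.

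**Figure D4:**
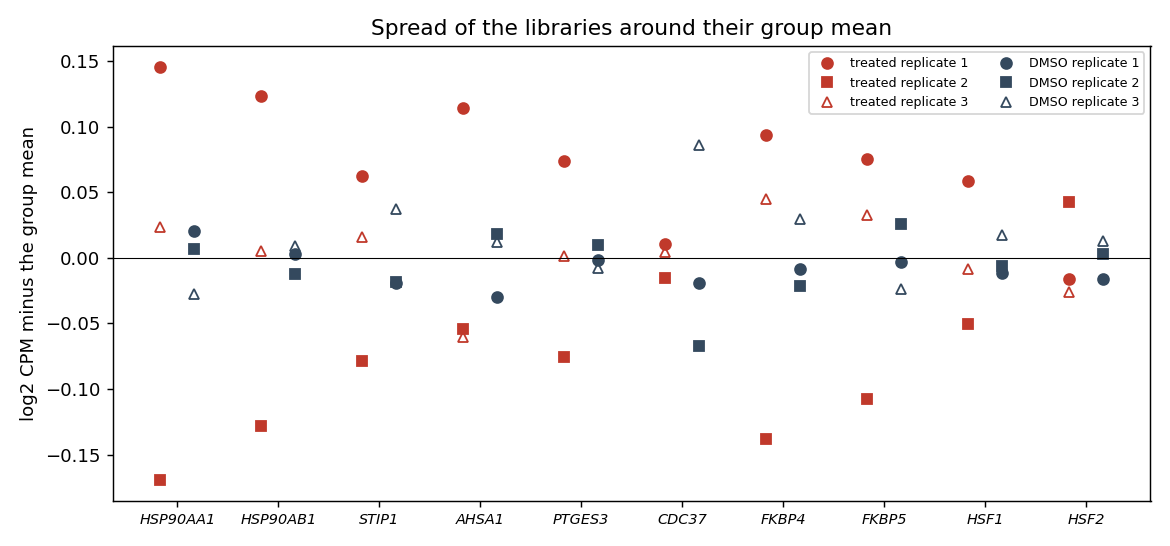
Log2 CPM of each library minus the mean of its group (vertical axis) for the 10 genes, treated in red on the left of each pair and DMSO in dark on the right. Treated replicate 1 (filled circles) is above its group mean and treated replicate 2 (filled squares) below it for most genes, while DMSO libraries lie closer to 0 except for CDC37.

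The genes with the profiles closest to HSP90AB1 and to FKBP5 were sought among 12338 others, by Euclidean distance between log2 CPM profiles over the 6 libraries, each centred on its mean. Closest to HSP90AB1 were MRPS34 (distance 0.0383), BCCIP (0.0577) and SLC6A8 (0.0677), each with a log2 fold change of -0.94. Closest to FKBP5 were MRPS27 (0.0183), URB1 (0.0352) and BYSL (0.0401), with log2 fold changes of -0.55, -0.56 and -0.55. Within the 10 genes the closest pair was PTGES3 and FKBP5 (0.0625), followed by STIP1 and FKBP5 (0.0948), and HSP90AB1 was nearer to AHSA1 (0.110) than to HSP90AA1 (0.191).

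HSP90 genes of other compartments fell less. HSP90B1, which encodes GRP94 of the endoplasmic reticulum, had 825, 849.8 and 849 CPM in treated cells, against 954, 923 and 936 CPM in DMSO cells, a log2 fold change of -0.16 (SE 0.03, edgeR adjusted p = 6.00e-05). TRAP1, the mitochondrial HSP90, had 355, 301 and 329.7 CPM in treated cells, against 450.2, 456 and 462 CPM in DMSO cells, a log2 fold change of -0.47 (SE 0.04, edgeR adjusted p = 9.03e-11). Neither had overlapping groups.

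Of 24 other co-chaperones of HSP90, all tested, 14 fell, 4 rose and 6 did not pass, with a median log2 fold change of -0.28. The 58.3% that fell stand against 32.7% of all tested genes and 48.1% of genes at or above the level of HSF2. The 16.7% that rose stand against 33.8% and 27.8%. Some of the 24 lie below the level of HSF2. NUDC, a co-chaperone named for nuclear distribution, averaged 266 ± 11.8 CPM in treated and 433 ± 17.5 CPM in DMSO cells (SD, n = 3 each). CHORDC1, a zinc-binding partner of HSP90, averaged 97.4 ± 6.72 CPM in treated and 159 ± 7.48 CPM in DMSO cells. Their log2 fold changes were -0.70 and -0.71, the largest falls of the list. TOMM34, a cytosolic TPR protein of mitochondrial import, rose by 0.30 (edgeR adjusted p = 6.48e-06) and TSC1, which slows the HSP90 ATPase, by 0.38 (edgeR adjusted p = 3.48e-05).

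Chaperone genes known as HSF1 targets fell in 12 of 14 tested genes out of 15 listed, with a median log2 fold change of -0.74 and a range from -1.89 to 2.24. That is 85.7% of them, beside 32.7% of all tested genes and 48.1% at or above the level of HSF2, which some of the 14 do not reach. HSPB1, the small heat shock protein HSP27, averaged 131 ± 13.3 CPM in treated and 292 ± 10.9 CPM in DMSO cells (SD, n = 3 each). HSPA1A, an inducible HSP70, averaged 68.9 ± 8.09 CPM in treated and 158 ± 6.99 CPM in DMSO cells, and it can share reads with the near-identical HSPA1B. HSPA6 and SERPINH1 rose instead. HSPA6, an HSP70 gene that is silent in most unstressed human cells, had 12.8, 17.3 and 14.7 CPM in treated cells, against 3.00, 3.20 and 3.27 CPM in DMSO cells. Its log2 fold change was 2.24 (SE 0.15, edgeR adjusted p = 2.40e-13). SERPINH1, the collagen chaperone HSP47, had 181, 178 and 183 CPM in treated cells, against 128, 121 and 123 CPM in DMSO cells, a log2 fold change of 0.54 (SE 0.04, edgeR adjusted p = 4.22e-12). The 3-unit motif was in promoter windows of both genes that rose, HSPA6 and SERPINH1, and of 3 that fell, HSPA8, HSPD1 and DNAJA1, among 14 listed genes whose promoters were searched. Treated replicate 2 was the lowest treated library for 11 of the 14 tested genes of this list (78.6%) and the highest for 3 (21.4%). Over all tested genes, of every level, these shares were 37.9% and 35.1%. The same library was the lowest for 8 of the 10 genes above, so these counts are not independent.

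Other heat shock factors and regulators of HSF1 were split, with 4 higher, 4 lower and 2 not passing among 10 tested genes out of 13 listed (median 0.11), shares of 40.0% each way near those over all genes. CREBBP and EP300, related acetyltransferases of which EP300 acetylates HSF1, rose by 0.65 (edgeR adjusted p = 5.25e-12) and 0.38 (edgeR adjusted p = 1.03e-07). VCP, a segregase of ubiquitinated proteins, fell by 0.32 (edgeR adjusted p = 1.09e-08) and the mitotic kinase PLK1 by 0.22 (edgeR adjusted p = 1.62e-05).

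Genes of client kinases of HSP90 went both ways by small amounts, with 9 higher, 8 lower and 3 not passing among 20 tested out of 22 listed, and a median log2 fold change of 0.01. These shares, 45.0% higher and 40.0% lower, stand beside 33.8% and 32.7% over all tested genes. Among genes at or above the level of HSF2, which some of the 20 do not reach, 27.8% were higher and 48.1% lower. CHUK, which encodes IKK alpha, fell by 0.44 (edgeR adjusted p = 6.63e-08) and the cell cycle kinase CDK4 by 0.29 (edgeR adjusted p = 1.19e-07). RIPK1, a kinase of death receptor signalling, rose by 0.31 (edgeR adjusted p = 2.27e-05) and the integrin-linked kinase ILK by 0.27 (edgeR adjusted p = 4.61e-05). The fusion partners of the leukaemic BCR-ABL1 kinase, a client of HSP90, had log2 fold changes of 0.10 for ABL1 (SE 0.04, edgeR adjusted p = 0.0140) and -0.08 for BCR (SE 0.05, edgeR adjusted p = 0.156), which count reads of the fusion and of the unfused genes alike.

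Of 14 receptor clients and glucocorticoid-responsive genes 9 were tested, of which 5 rose, 3 fell and 1 did not pass (55.6% higher and 33.3% lower, beside 33.8% higher and 32.7% lower over all genes). DDIT4, an mTORC1 inhibitor, averaged 900.0 ± 63.4 CPM in treated and 121 ± 0.579 CPM in DMSO cells (SD, n = 3 each), and the metallothionein MT2A rose by 1.54 on the log2 scale (SE 0.20, edgeR adjusted p = 7.44e-08). PER1, a clock gene, fell by 0.63 (edgeR adjusted p = 2.96e-08) and the phosphatase gene DUSP1 by 0.80 (edgeR adjusted p = 2.16e-06). NR3C1, the glucocorticoid receptor that FKBP4 and FKBP5 act on, averaged 62.8 ± 0.760 CPM in treated and 52.4 ± 0.988 CPM in DMSO cells (log2 fold change 0.26, SE 0.06, edgeR adjusted p = 1.58e-04). FKBP5 is itself a textbook glucocorticoid target and fell while these others went both ways. TSC22D3, another such target, passed the count filter only through treated libraries, with 1.84, 2.14 and 1.97 CPM in treated cells and 0.388, 0.224 and 0.136 CPM in DMSO cells, so its place among the 5 risers was fixed by the filter. Over the 6 lists together 24 of 79 tested genes rose (30.4%) and 43 fell (54.4%), beside 33.8% higher and 32.7% lower over all genes. Among genes at or above the level of HSF2, which some of the 79 do not reach, 48.1% were lower. With libraries scaled by their totals 26 of the listed genes were higher and 39 lower, beside 41.0% and 25.8% of all genes.

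**Figure D5:**
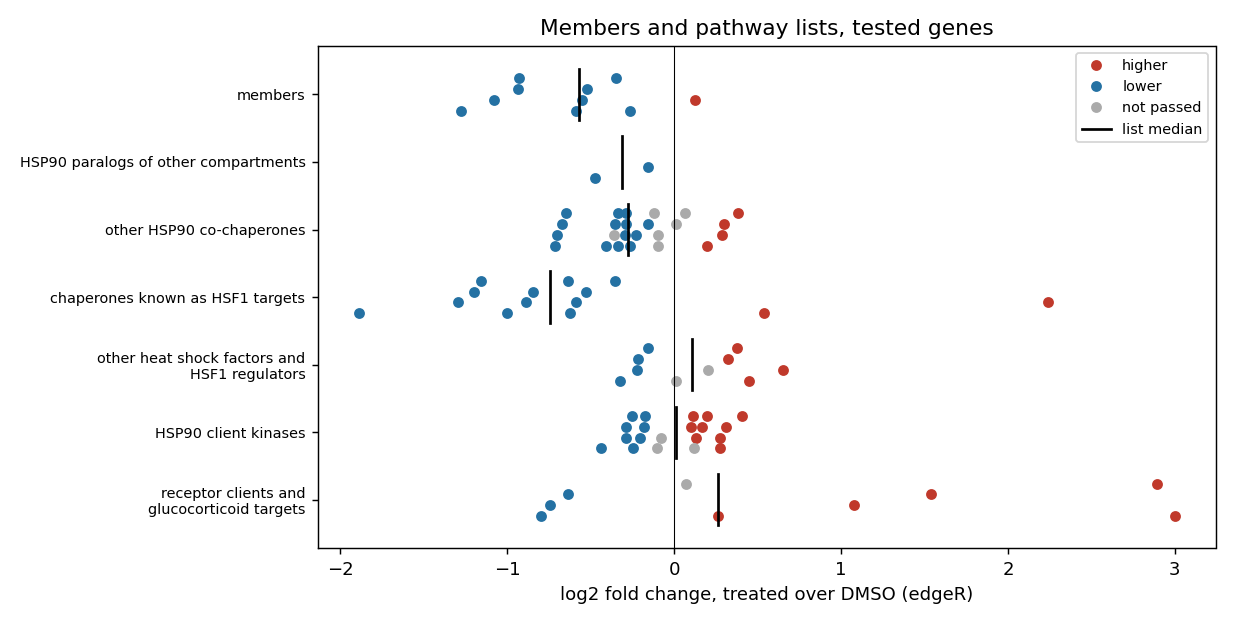
Log2 fold change, treated over DMSO (horizontal axis), of each tested gene in the 10-gene set (top row, members) and in 6 pathway lists, coloured by call, with the list median as a black bar. Medians lie at -0.57 for the 10 genes and -0.74 for HSF1 target chaperones, with HSPA6 far right in that row, and at 0.01 for client kinases.

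In the authors' deposited table, the ratio of group B over group A was below 1 for 9 of the 10 genes and above 1 for HSF1. Its header leaves the groups unnamed, so the direction of that ratio is not known from it. The authors' deposited table gives 0.408 for FKBP4, 0.468 for HSP90AA1, 0.518 for HSP90AB1 and 1.08 for HSF1, beside folds of treated over DMSO of 0.412, 0.473, 0.523 and 1.09 from the test above. Its adjusted p, also from the authors' deposited table, was under 0.05 for 9 of the 10 genes and 0.0857 for HSF1, where 43.2% of the 17783 rows were under 0.05.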

How the data were processed

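For each of the 6 libraries the authors deposited a list of gene symbols with raw read counts. STAR, Cufflinks, DESeq2 and hg19 are listed without roles, per the submitters' processing notes, and no counting program, strand setting or annotation is stated there. The labels' protocols name a directional mRNA kit. The 5 rows of unassigned reads, between 10.9% and 13.1% without a feature and between 2.27% and 2.38% ambiguous, entered neither library sizes nor tests. The authors also deposited a table with a fold ratio and an adjusted p-value per gene, per the file headers, used only for comparison.

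Testing used edgeR 4.0.16 (quasi-likelihood, R 4.3.3) on the counts, fitting treatment alone after TMM scaling and filterByExpr (minimum count 10), two-sided, with Benjamini-Hochberg adjustment over all tested genes. Standard errors were taken from the log2 fold change and its F statistic. DESeq2 1.42.0 was an alternative, as were other scalings, filters, a minimum fold change, a replicate block and leaving out each library. At this depth 3 counts correspond to between 0.136 and 0.168 CPM. Replicates differed beyond counting noise (chi-square per degree of freedom 3.09 to 6.22 in treated and 2.38 to 3.25 in DMSO) and were kept apart.

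The 10 genes and all lists were chosen with earlier results of these data known. Named were the 10 genes, the HSP90 genes of other compartments, the 2 changed genes of each list with the smallest p in each direction, pseudogene symbols with at least 10 counts in a library, and the 3 closest profiles to HSP90AB1 and FKBP5. HSP90AB4P, EPCAM, HSPA8, HSPD1, DNAJA1, ABL1, BCR, NR3C1 and TSC22D3 fall outside this rule and were named after their values were seen. A further marker of K562 is not reported here. Symbols were matched to GENCODE release 29 and to RefSeq promoters on GRCh38.p14, whose coordinates are not those of hg19.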

Additional observations from a re-analysis of the deposited data

How the results depend on the processing

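Of 140 values of the 10 log2 fold changes under 14 alternatives, 134 kept their direction and side of the threshold. The other 6 lost the call, all of HSF1, HSF2 or CDC37 and given above. Some of the 134 could hardly change. Adding a pseudogene symbol altered only the counts of HSP90AB1. The minimum fold change reused the main log2 fold changes, which fixed their direction. The count of 9 lower genes stayed at 9 under each alternative except the minimum fold change of 1.2. Under the alternatives that kept 9, between 23.5% and 35.2% of all tested genes were lower. The minimum fold change left 7 lower and 0 higher, where 17.2% of genes were lower and 21.4% higher. With that minimum 2641 genes were higher and 2124 lower over all tested genes, against 4167 and 4031, and 10 pathway genes were higher and 26 lower, against 24 and 43. The number of genes counted as higher, of the 10, was 0 or 1 with 1 library left out. It was 0 without treated replicate 1, without DMSO replicate 1 and without DMSO replicate 2. Over all tested genes, between 30.9% and 33.1% were higher with 1 library left out. Libraries scaled by their totals gave 5059 higher and 3185 lower genes, and gave a median log2 fold change of all genes of 0.105, against 0.01 with TMM, but left the calls of the 10 genes at 1 higher and 9 lower.

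Deviations of same-numbered libraries from their group means had correlations of -0.002, -0.001 and -0.067. Such values from 3 libraries per group cannot show whether the replicate numbers pair the libraries. With a replicate block 1 of the 10 genes was higher and 9 were lower, and over all genes 4091 (33.2%) were higher and 3959 (32.1%) lower. The 71 values of the ratios to HSP90 under their alternatives kept their direction. Those from the replicate block equal the main differences by construction. With 3 libraries against 3 the ratio tests cannot pass 0.05. Adding HSP90AB4P to HSP90AB1 left its log2 fold change at -0.94, which the 1 to 4 counts of HSP90AB4P per library could not alter. This does not address reads shared between HSP90AA1 and HSP90AB1.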

Other observations

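The 3-unit heat shock motif was rare among promoters, and genes that hold it were not uniformly lower. Of 8946 tested genes with a searched promoter, 45 held it within 250 bases before or 50 after a start. Of these 45, 21 were lower and 14 higher in treated cells (46.7% and 31.1%), with a median log2 fold change of -0.16 and quartiles of -0.62 and 0.29. Over all 8946 genes 33.8% were lower and 33.8% higher, with a median of 0.00. Among the 5935 tested genes at or above the level of HSF2, with or without a searched promoter, 48.1% were lower and 27.8% higher. Not all of the 45 reach that level. Among the 1165 genes with a 2-unit but no 3-unit motif, 30.7% were lower and 36.8% higher, with a median of 0.05. HSP90AA1, HSP90AB1, HSPA8, HSPD1, DNAJA1, HSPA6 and SERPINH1 are among the 45, which were grouped by sequence after the values were known and not tested as a set.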
